A study of Medicago sativa with 86 samples.

Results

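Leaves of ineffective alfalfa (*Medicago sativa*) at ambient CO2 were compared between the cultivars Saranac and Agate, in 10 Saranac and 10 Agate RNA-seq libraries. These are the 20 of 86 libraries whose labels give ineffective nitrogen fixation and 420 ppm CO2. Another library was left out because its labels contradict each other on fixation. All 20 came from pots with added rhizobium, in growth chambers at 420 ppm CO2, and were labelled as leaf tissue. The nitrate feed, given weekly as KNO3 in nutrient solution, was 6, 10 or 16 mM. Saranac had 3, 4 and 3 libraries at these levels and Agate had 3, 3 and 4. The comparisons drawn alongside used 22 ineffective libraries at 600 ppm (11 Saranac, 11 Agate) and 22 effective libraries at 420 ppm (11 Saranac, 11 Agate). The 2 CO2 levels were held in different chambers, so level and chamber cannot be told apart.

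Alfalfa, like other legumes, houses rhizobia in root nodules, where the bacteria reduce nitrogen gas to ammonia, and the plant sends the nitrogen to its shoots in amino compounds. Nodules that form but fix little or no nitrogen are called ineffective, and a plant that bears them draws on nitrate from the soil. Ineffective germplasm in which the plant itself causes the failure is known in alfalfa. The labels do not state whether that germplasm, another rhizobium or both define the ineffective class here. Alfalfa is an outcrossing autotetraploid, and a cultivar is a population of plants that differ genetically. The labels do not say whether each library is a separate plant, so p-values measure the spread between libraries, which may be technical. Identifiers are printed as the count table gives them. None of the 49095 could be paired with a gene name, so the leaf label could not be set against marker genes and no functions are given.

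The 2 cultivars were sequenced to like depth. Total counts were 16890302 to 22906515 per library in Saranac and 15750805 to 24489884 in Agate (two-sided permutation test within nitrate levels, p = 0.545). After thinning to a common depth, Saranac libraries held 23538 ± 405 identifiers with a count and Agate libraries 23378 ± 445 (SD, n = 10 each, permutation p = 0.402). The 100 most abundant identifiers took 38.7 ± 6.46% of the counts in Saranac and 37.3 ± 7.61% in Agate (SD, n = 10 each, permutation p = 0.654). Adjusted over these 3 measures, each p was 0.654.

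The cultivars separated on the second principal component of the 20 libraries and not on the first. Cultivar accounted for 82.3% of the second axis, which held 15.1% of the variance. On it, Saranac libraries lay between -1.51 and 83.4 (median 60.7) and Agate libraries between -117 and -20.1 (median -48.3), with no overlap. The first axis held 17.4% of the variance, and cultivar accounted for 4.06% of it. Its 4 highest libraries were those with the lowest share of counts in the 100 most abundant identifiers. Of these, Saranac 16 mM replicate 4 had a share of 29.6% and Saranac 10 mM replicate 1 one of 24.6%. Agate 16 mM replicate 1 had 19.8% and Agate 10 mM replicate 1 had 31.2%. These 4 libraries were 2 from each cultivar. With that share as a covariate, an alternative added after the data were seen, 1377 identifiers differed between cultivars, against 1159 without it.

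**Figure D1:**
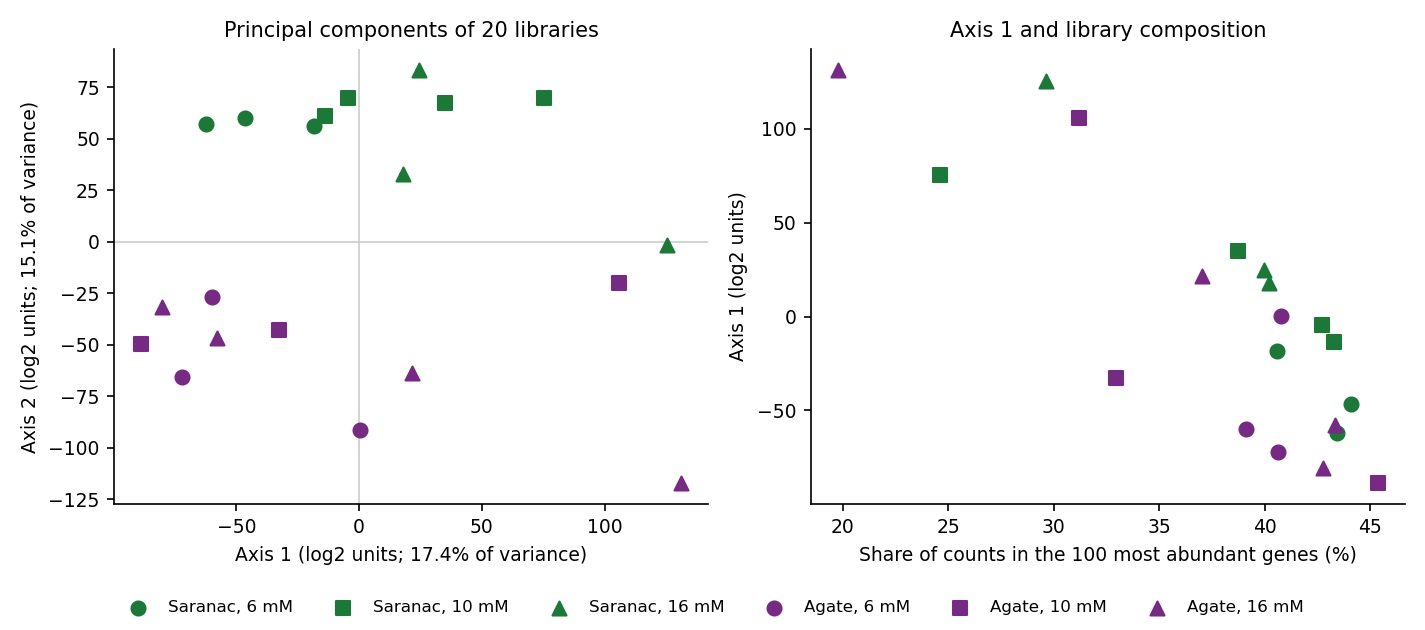
Principal components of log2 CPM in 10 Saranac (green) and 10 Agate (purple) ineffective libraries at 420 ppm CO2, with circles, squares and triangles for 6, 10 and 16 mM KNO3. Left, axis 1 against axis 2 in log2 units. Right, axis 1 against the share of counts in the 100 most abundant identifiers (%). Saranac lies above Agate on axis 2, and the libraries with the lowest shares lie highest on axis 1.

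The cultivar labels could be set against libraries that the comparison did not use. The 20 libraries were placed on a line from the Agate mean (-1) to the Saranac mean (1) of effective plants at 420 ppm. The line used the 32 identifiers called between effective cultivars in a joint fit of both fixation classes. That fit also held the 20 scored libraries, and a fit of the effective libraries alone called 5. Saranac libraries scored 0.131 to 0.459 (median 0.279) and Agate libraries -0.447 to 0.0245 (median -0.289). A second line, added after the data were seen, ran between the means of the ineffective plants at 600 ppm, over 2363 identifiers. On it Saranac libraries scored 0.542 to 1.02 (median 0.753) and Agate libraries -0.925 to -0.414 (median -0.753). On both lines every Saranac library stood above every Agate library. Saranac 6 mM replicate 3, whose library number lies among those of the 16 mM libraries, scored 0.459 and 0.542, on the Saranac side. Those 16 mM libraries are Saranac too, so the score cannot bear on its nitrate label.

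Between ineffective Saranac and ineffective Agate, 1159 of 21591 tested identifiers differed (5.37%), of which 525 were higher in Saranac (2.43%) and 634 lower (2.94%). The test was edgeR's quasi-likelihood test with nitrate level as a block, and an identifier is called when its p, adjusted by Benjamini-Hochberg over all tested, is under 0.05. An unadjusted p under 0.05 was found for 4445. In bulk leaf RNA, fewer cells of a type and less RNA per cell cannot be told apart. The median size of the called differences was 1.78 on the log2 scale, 2.07 for those higher in Saranac and 1.57 for those lower, against 0.34 over all tested identifiers. Of the called, 880 differed by more than 1 on the log2 scale, 524 by more than 2 and 143 by more than 5. Over all tested identifiers those counts were 3782, 1308 and 193. In these medians and counts, identifiers with no read in 1 cultivar were set to the bound that 3 counts over the group give. The number of calls moved with the libraries used. It was between 786 and 1224 with any single library left out, but 162 without the 6 libraries of replicate number 4. DESeq2 called 2411.

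The differences lay mostly in weakly and moderately expressed identifiers. Split by abundance into 3 classes of 7197, the lowest, with up to 3.14 CPM (counts per library size, with TMM scaling), had 6.53% called, with a median size of 3.23 (log2). In the middle class 6.16% were called, with a median size of 1.32. In the highest class, from 18.2 CPM, 3.42% were called, with a median size of 0.94. The median standard error was 0.59, 0.28 and 0.20 from the lowest class to the highest, and its part in these shares was not tested. None of the 100 most abundant identifiers was called by edgeR's test (7 had an unadjusted p under 0.05), and their median difference was 0.07 (log2).

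Some identifiers had reads in one cultivar and none in the other. Among the called, 19 had no read in any of the 10 Agate libraries, and 10 of these were seen in at least 8 Saranac libraries. Another 16 had no read in any Saranac library, and 7 of these were seen in at least 8 Agate libraries. Over all tested identifiers, 35 had no read in any Agate library and 57 none in any Saranac library. Ranges that did not overlap between the cultivars were found for 81 of the tested identifiers (0.375%), of which 40 were higher in Saranac (0.185%) and 41 lower (0.19%). Of these 81, 78 were called. A single library held most of the summed CPM of the higher cultivar for 14 of the 525 higher identifiers (2.67%) and 28 of the 634 lower ones (4.42%). Over all tested identifiers this was so for 5.02% in Saranac and 7.65% in Agate.

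The identifiers described singly were taken by rule as the largest called differences without overlap, at a mean of 1 CPM or more. Highest in Saranac was MsG0480020270.01. Its level in Saranac was 35.1 CPM at the lowest, 799 at the median and 3242 at the highest, against 0.687, 7.35 and 15.6 CPM in Agate. Every Saranac library exceeded every Agate library, although Saranac itself spread widely. Its lowest Saranac values, 35.1 and 88.5 CPM, were both at 6 mM, where the other library had 945 CPM. The difference was 7.47 ± 0.80 (log2, SE, edgeR adjusted p = 4.5e-05).

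MsG0180000170.01 was seen in all 10 Saranac libraries and had no read in 8 of 10 Agate libraries. Its level in Saranac was 16.5 CPM at the lowest, 35.2 at the median and 80.8 at the highest, against 0, 0 and 12.3 CPM in Agate. The Agate libraries with reads were 6 mM replicate 2, at 12.3 CPM, and 16 mM replicate 3, at 0.248 CPM. Even that 12.3 CPM stayed under the lowest Saranac library. The fitted difference was 7.11 ± 1.22 (log2, SE, edgeR adjusted p = 0.0032). It was 10.08 without that Agate 6 mM library and 7.72 without Saranac 6 mM replicate 4.

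Of the lower identifiers, MsG0480021407.01 had no read in any Saranac library. Agate held 894 counts of it, with 0.493 CPM at the lowest, 4.11 at the median and 11.4 at the highest. It was thus at least 278-fold lower in Saranac, taking 3 counts over the group as the floor (edgeR adjusted p = 0.00036). The bound covers counting error only.

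MsG0180000574.01 had 2 counts in Saranac, both in 16 mM replicate 1, against 393 counts in Agate. Agate libraries ranged from 0.533 through a median of 2.19 to 3.83 CPM, all above the 0.117 CPM of that Saranac library. The ratio of Agate to Saranac was 183 (exact 95% interval for counting error 50.4 to 1518, edgeR adjusted p = 4.5e-05).

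The 4 identifiers were then read in the other plants. In ineffective plants at 600 ppm the medians kept their order but the ranges overlapped for all 4. MsG0480020270.01 had a median of 1798 CPM in Saranac, with a lowest value of 137, and a median of 20.1 in Agate, with a highest value of 302. MsG0180000170.01 had a lowest value of 10.7 CPM in Saranac there, against a highest of 23.9 in Agate. For the other 2, Agate reached down to 0 CPM for MsG0480021407.01 and to 0.183 for MsG0180000574.01, against highest values of 3.40 and 0.195 CPM in Saranac. In effective plants at 420 ppm the medians of MsG0480020270.01 were 15.6 CPM in Saranac and 34.3 in Agate, and both cultivars held libraries at both ends. Of 11 effective Saranac libraries, 4 had 115 CPM or more and the rest 17.2 or less. Of 11 effective Agate libraries, 5 had 690 CPM or more and the rest 34.3 or less. MsG0180000170.01 had a median of 0 CPM in effective Saranac, with 1 library at 102 CPM, and of 0.0895 CPM in effective Agate, with a highest value of 33.4. MsG0480021407.01 had reads in 3 of 11 effective Saranac and 4 of 11 effective Agate libraries. MsG0180000574.01 had a median of 0 and a highest value of 0.796 CPM in effective Saranac, and a median of 0.128 and a highest value of 5.93 CPM in effective Agate. The cultivars thus overlapped for all 4 in effective plants too.

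**Figure D2:**
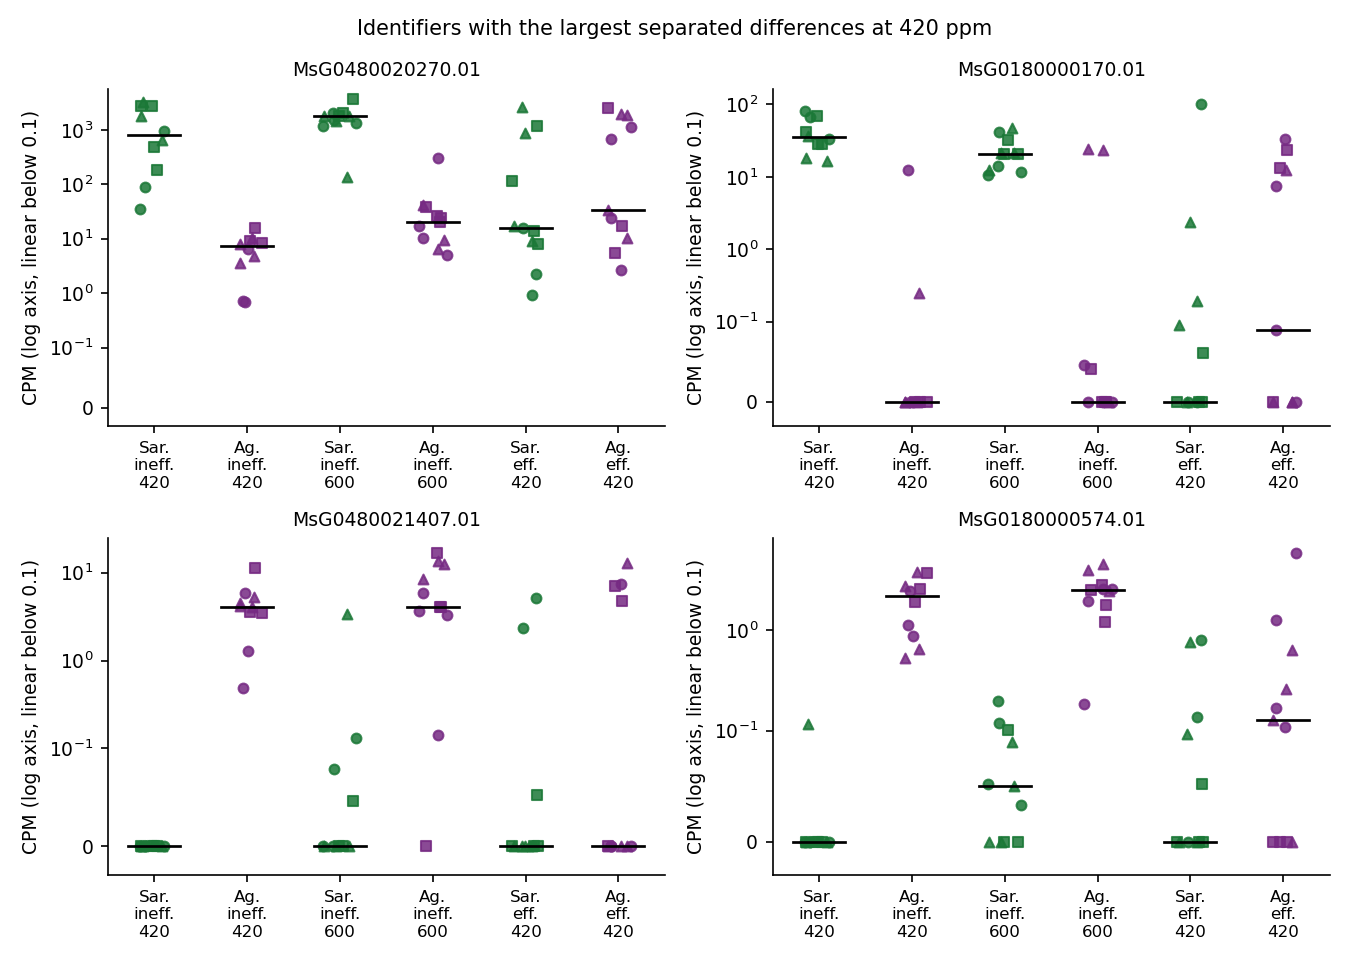
Level (CPM, log axis that is linear below 0.1) of the 4 identifiers with the largest separated differences, in each library of ineffective plants at 420 ppm, ineffective plants at 600 ppm and effective plants at 420 ppm, Saranac (green) left of Agate (purple). Circles, squares and triangles are 6, 10 and 16 mM KNO3, and bars are medians. The cultivars do not overlap in the leftmost pair of each panel, which chose these identifiers, and they overlap in the middle and rightmost pairs.

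Across the 3 nitrate levels the cultivar difference kept its direction. Of the 1159 called identifiers, 1152 had the same sign at 6, 10 and 16 mM, against 9851 of all 21591 tested (45.6%). The choice of called identifiers favours such a match, since the same libraries made the calls. In the direction of the call, the median difference was 1.78 at 6 mM, 1.69 at 10 mM and 1.66 at 16 mM (log2). Within a single level few identifiers passed edgeR's test. There were 0 of 21591 at 6 mM (1896 with an unadjusted p under 0.05), 25 at 10 mM (0.116%, 12 higher or 0.0556% and 13 lower or 0.0602%) and 9 at 16 mM (0.0417%, 4 higher or 0.0185% and 5 lower or 0.0232%). At 6 mM, limma-trend called 29 and DESeq2 called 405. The lists at 10 and 16 mM shared 5 identifiers, which is 20% of the first list and 55.6% of the second, and all 25 and all 9 were among the 1159. These counts were fragile. Without the libraries of replicate number 2 both were 0, and without Saranac 6 mM replicate 3 they were 14 and 0.

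The identifiers named at a single nitrate level were taken from those called there whose difference had the same sign at every level. That choice favours a cultivar order that holds across levels. By this rule the 2 most abundant higher identifiers called at 10 mM were MsG0680035909.01 and MsG0480022262.01. MsG0680035909.01 had 65.1, 97.6, 111 and 99.6 CPM in Saranac at 10 mM, against 43.2, 33.4 and 37.2 CPM in Agate. No Saranac value fell among the Agate ones. The difference was 1.29 ± 0.22 at 10 mM (log2, SE, edgeR adjusted p = 0.035) and 0.50 ± 0.21 at 16 mM, which did not pass the test there (adjusted p = 0.50). MsG0480022262.01 had 37.9, 41.9, 52.9 and 51.6 CPM in Saranac at 10 mM, against 7.13, 10.1 and 9.25 CPM in Agate. It was the steadier of the pair: its 10 Saranac libraries over all levels lay between 36.3 and 52.9 CPM and its 10 Agate libraries between 7.13 and 20.8 CPM. The difference was 2.38 ± 0.26 at 10 mM (log2, SE, edgeR adjusted p = 0.0015), and 1.86 ± 0.17 over all levels (adjusted p = 1.2e-05).

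By the same rule the 2 most abundant lower ones at 10 mM were MsG0580025845.01 and MsG0080048024.01. MsG0580025845.01 had 26.3, 20.3, 19.2 and 15.5 CPM in Saranac at 10 mM, against 52.7, 48.2 and 64.96 CPM in Agate, with every Saranac library below every Agate one. At 16 mM the ranges overlapped, with 32.7 to 36.96 CPM in Saranac and 26.2 to 50.6 CPM in Agate. The difference was -1.45 ± 0.23 at 10 mM (log2, SE, edgeR adjusted p = 0.028) and -0.06 ± 0.23 at 16 mM (adjusted p = 0.98). MsG0080048024.01 had 4.62, 4.80, 4.29 and 4.96 CPM in Saranac at 10 mM, against 51.2, 33.8 and 24.5 CPM in Agate. Saranac libraries stayed close together, while the highest Agate library was over 2 times the lowest. The difference was -2.97 ± 0.36 (log2, SE, edgeR adjusted p = 0.0021). All 4 lost their call at 10 mM without the libraries of replicate number 4, with adjusted p from 0.14 to 0.53.

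At 16 mM 4 identifiers were called higher. The rule, which passes over identifiers already named, left MsG0180001938.01 and MsG0480020375.01. MsG0480020270.01 and MsG0480022262.01, described above, were the others called higher at 16 mM and were more abundant. Their differences there were 8.15 ± 1.37 and 1.65 ± 0.24 (log2, SE, edgeR adjusted p = 0.047 and 0.040). MsG0180001938.01 had 25.2, 14.2 and 27.6 CPM in Saranac at 16 mM, against 5.77, 6.46, 4.66 and 2.59 CPM in Agate. MsG0480020375.01 had 26.5, 16.5 and 15.2 CPM in Saranac, against 7.33, 5.55, 3.92 and 5.40 CPM in Agate. In both, all Saranac libraries of all 3 levels stood above all Agate ones. The same sign at every level was part of the rule, which favours this order. The differences at 16 mM were 2.22 ± 0.38 and 1.83 ± 0.31 (log2, SE, edgeR adjusted p = 0.047 for each).

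Of the 5 identifiers called lower at 16 mM, the rule gave MsG0480021153.01 and MsG0380011840.01. MsG0480021153.01 had 12.1, 12.1 and 15.5 CPM in Saranac at 16 mM, against 30.3, 35.8, 42.1 and 41.1 CPM in Agate. MsG0380011840.01 had 2.17, 3.90 and 3.43 CPM in Saranac, against 28.3, 30.4, 34.7 and 33.3 CPM in Agate. In MsG0480021153.01 the cultivars did not overlap at any level, and in MsG0380011840.01 a single Saranac library, 6 mM replicate 2 at 18.03 CPM, reached the lowest Agate library. The differences at 16 mM were -1.48 ± 0.23 and -3.30 ± 0.49 (log2, SE, edgeR adjusted p = 0.047 and 0.040). MsG0380011840.01 was called at 10 mM too, at -3.06 ± 0.44 (log2, SE, edgeR adjusted p = 0.016). So was MsG0480020375.01, at 1.87 ± 0.32 (log2, SE, edgeR adjusted p = 0.043). Over all levels the 4 taken by rule at 16 mM had edgeR adjusted p between 2.7e-05 and 0.00023. At 16 mM alone each lost its call in 7 or 8 of 11 alternatives.

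Whether the cultivar difference itself changed with nitrate was tested with its 2 interaction coefficients. edgeR called 0 of 21591 identifiers (652 with an unadjusted p under 0.05), limma-trend 0 and DESeq2 5. The smallest p at 1 CPM or more belonged to MsG0180000095.01 (unadjusted p = 2.8e-05, adjusted p = 0.60). Saranac libraries had 2.10 to 3.26 CPM of it at 6 mM, 2.64 to 11.5 at 10 mM and 2.99 to 9.02 at 16 mM. Agate libraries had 0.233 to 1.01 CPM at 6 mM, no read at 10 mM and 0.956 to 2.40 CPM at 16 mM. Saranac thus stood above Agate at each level. The next was MsG0780039272.01 (unadjusted p = 0.00013, adjusted p = 1), whose difference was -1.22 ± 0.68 at 6 mM, -2.81 ± 0.64 at 10 mM and 2.23 ± 0.63 at 16 mM (log2, SE). Neither passed edgeR's adjusted threshold over the 20 libraries, while DESeq2 called both (adjusted p = 0.0014 and 0.0020). With replicate number 1 left out, MsG0780039272.01 passed edgeR's test as well (adjusted p = 0.020).

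The cultivar difference was other in ineffective than in effective plants for 260 of 22876 identifiers tested (1.14%), 129 in the direction of Saranac (0.564%) and 131 in that of Agate (0.573%). This is edgeR's test of the difference in ineffective plants minus that in effective plants, both at 420 ppm, which share no library. An unadjusted p under 0.05 was found for 3140. For 228 of the 260, the 2 classes had opposite signs, and for 226 the difference was larger in ineffective plants. The choice favours opposite signs, since it rests on the gap between the 2 differences. In separate fits of the classes, 56.1% of 20676 identifiers tested in both had the same sign. Most of the 260 were not called in effective plants, so an opposite sign there is not read as a reversal. The median size of the 260 was 2.14 in ineffective and 0.54 in effective plants (log2), against 0.35 and 0.23 over all tested. In the joint fit 228 were called between cultivars in ineffective plants alone, 7 in effective plants alone, 1 in both and 24 in neither. Over all identifiers that fit called 1760 between cultivars in ineffective plants and 32 in effective plants. The median standard errors were 0.34 in ineffective and 0.32 in effective plants, and their part in the gap was not tested. The 260 became 18 without the libraries of replicate number 4, and lay between 202 and 342 with any single library left out.

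MsG0480021153.01, named above, had the smallest adjusted p for this difference among the identifiers described here. Ineffective Saranac had 12.1 CPM at the lowest, 15.5 at the median and 27.01 at the highest, and ineffective Agate 28.2, 37.5 and 42.6 CPM. Effective Saranac had 32.7, 37.9 and 46.1 CPM, and effective Agate 32.4, 37.2 and 47.5 CPM. Only the ineffective Saranac libraries stood apart from the other 3 groups, which overlapped. The cultivar difference was -1.15 ± 0.12 in ineffective and 0.03 ± 0.11 in effective plants (log2, SE), and these differed by -1.18 ± 0.16 (edgeR adjusted p = 7.6e-05).

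The identifiers taken by rule for this test were the largest at a mean of 1 CPM or more. On the higher side, MsG0680032997.01 had 1540 counts in ineffective Saranac, with 0 CPM at the lowest, 7.75 at the median and 25.2 at the highest, and no read in ineffective Agate. In effective plants the levels ran the other way without passing the test (adjusted p = 0.50), with a median of 0 and a highest value of 6.85 CPM in Saranac and a median of 8.35 and a highest value of 24.2 CPM in Agate. In ineffective plants it was at least 551-fold higher in Saranac by the floor of 3 counts over the group, although 2 of 10 Saranac libraries had no read (edgeR adjusted p of the difference = 0.0061). With replicate number 2, 3 or 4 left out that p was 0.052, 0.11 or 0.066. At 600 ppm ineffective plants of both cultivars held libraries with reads, 6 of 11 in Saranac and 4 of 11 in Agate.

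MsG0280010631.01 followed. Ineffective Saranac had 0 CPM at the lowest, 166 at the median and 1052 at the highest, and ineffective Agate 0, 0.0444 and 1.34 CPM. Saranac libraries fell apart among themselves, with 2 at 0, 2 at 0.418 and 3.20 and the other 6 at 59.3 CPM or more. Effective Saranac had 0, 0.184 and 1468 CPM, and effective Agate 0, 11.5 and 843 CPM, so both cultivars held high and low libraries. The cultivar difference was 10.44 ± 2.31 in ineffective and -1.61 ± 1.76 in effective plants (log2, SE), which differed by 12.05 ± 2.77 (edgeR adjusted p = 0.020). Without effective Agate 10 mM replicate 3 the gap was 10.50 (adjusted p = 0.10), without effective Saranac 10 mM replicate 4 it was 15.05 (adjusted p = 0.012), and without ineffective Saranac 6 mM replicate 4 the adjusted p was 0.053. With replicate number 2, 3 or 4 left out that p was 0.077, 0.40 or 0.14.

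On the lower side, MsG0180005882.01 had no read in ineffective Saranac and 5710 counts in ineffective Agate. Most of them, 4925, came from Agate 10 mM replicate 1, at 292 CPM, while the Agate median was 3.97 CPM and 3 libraries had no read. It was at least 1774-fold lower in ineffective Saranac, by the floor of 3 counts over the group. Without that Agate library 785 Agate counts were left and the bound was 267-fold. In effective plants Saranac had 610 counts, from 5 of 11 libraries, and Agate had 1, a ratio of Saranac to Agate of 619 (exact 95% interval for counting error 111 to 24503). That difference in effective plants did not pass edgeR's test (adjusted p = 0.13). The adjusted p of the difference between classes was 0.00095 with edgeR, 0.0021 without that Agate library and 0.10 with replicate number 2 left out.

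MsG0480021519.01 had 19 counts in ineffective Saranac, 18 of them in 16 mM replicate 2, and 1454 in ineffective Agate. Ineffective Saranac had 0 CPM at the lowest and the median and 0.961 at the highest, and ineffective Agate 0, 7.57 and 20.01 CPM. In effective plants the reads lay in Saranac, 379 counts from 3 of 11 libraries, and Agate had none. That put it at least 128-fold higher in Saranac, but the difference did not pass edgeR's test (adjusted p = 0.30). At 600 ppm ineffective plants had no read in Saranac and 1926 counts in Agate. The adjusted p of the difference between classes was 0.036 with edgeR, and it lost the call in 13 of 54 alternatives, with adjusted p up to 1. Single libraries sufficed: without effective Agate 10 mM replicate 1, 2 or 3 the adjusted p was 0.090, 0.097 and 0.10, and without effective Saranac 10 mM replicate 1 or 4 it was 0.051.

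Set beside ineffective plants at 600 ppm, which share no library with the 420 ppm comparison, the called differences recurred. Of the 1159, 1108 were tested at 600 ppm and 1066 of them had the same sign (96.2%), against 69.2% of all identifiers tested at both levels. In the 600 ppm libraries 2363 of 21998 were called (10.7%), 1213 higher in Saranac (5.51%) and 1150 lower (5.23%). Of the 1159, 575 were among them with the same direction, which is 49.6% of the 420 ppm list and 24.3% of the 600 ppm list, and 0 with the opposite one. The median difference in the direction of the call was 1.69 at 420 ppm, where the calls were made, and 1.08 at 600 ppm (log2). Taken the other way, 2220 of the 2363 identifiers called at 600 ppm were tested at 420 ppm. There 2070 had the same sign (93.2%), with a median of 0.77 at 420 ppm and 1.20 at 600 ppm. In each direction the level that made the calls had the larger median. Across 20999 identifiers the 2 sets of differences had Pearson's r = 0.71 and Spearman's rho = 0.56, as a description, since identifiers are not independent.

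A direct test of the cultivar difference at 420 ppm minus that at 600 ppm called 0 of 23050 identifiers with edgeR (1699 with an unadjusted p under 0.05), 0 with limma-trend and 40 with DESeq2. This does not show that the cultivar differences were equal at both levels. MsG0380011840.01, for example, differed by -2.64 ± 0.39 at 420 ppm and -0.88 ± 0.34 at 600 ppm in the joint fit (log2, SE), a gap of -1.76 ± 0.51 (edgeR adjusted p = 0.53). It was picked from the named identifiers after its values were seen.

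In effective plants at 420 ppm the differences of the same identifiers were smaller at the median, and none passed edgeR's test. There 5 of 21471 identifiers were called between cultivars (0.0233%), 1 higher in Saranac (0.00466%) and 4 lower (0.0186%). Of the 1159 called in ineffective plants, 1042 were tested and 667 had the same sign (64.01%), against 56.1% of all. None was called by edgeR in those 22 libraries. There 156 of the 1042 had an unadjusted p under 0.05 (14.97%), 124 of them with the same sign, against 2083 of all 21471 (9.70%). The lack of calls does not show that the difference was absent in effective plants. By the direct test between classes, 214 of the 1159 were called. The median difference in the direction of the call was 1.59 in ineffective and 0.14 in effective plants (log2). The ineffective libraries made the calls, which favours a larger median there, and the part of that choice in the gap was not tested. All 5 called in effective plants were tested in ineffective plants at 420 ppm, where 0 were called by edgeR, 2 had an unadjusted p under 0.05 and 4 had the same sign. Across 20676 identifiers Pearson's r was 0.18 and Spearman's rho 0.16.

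**Figure D3:**
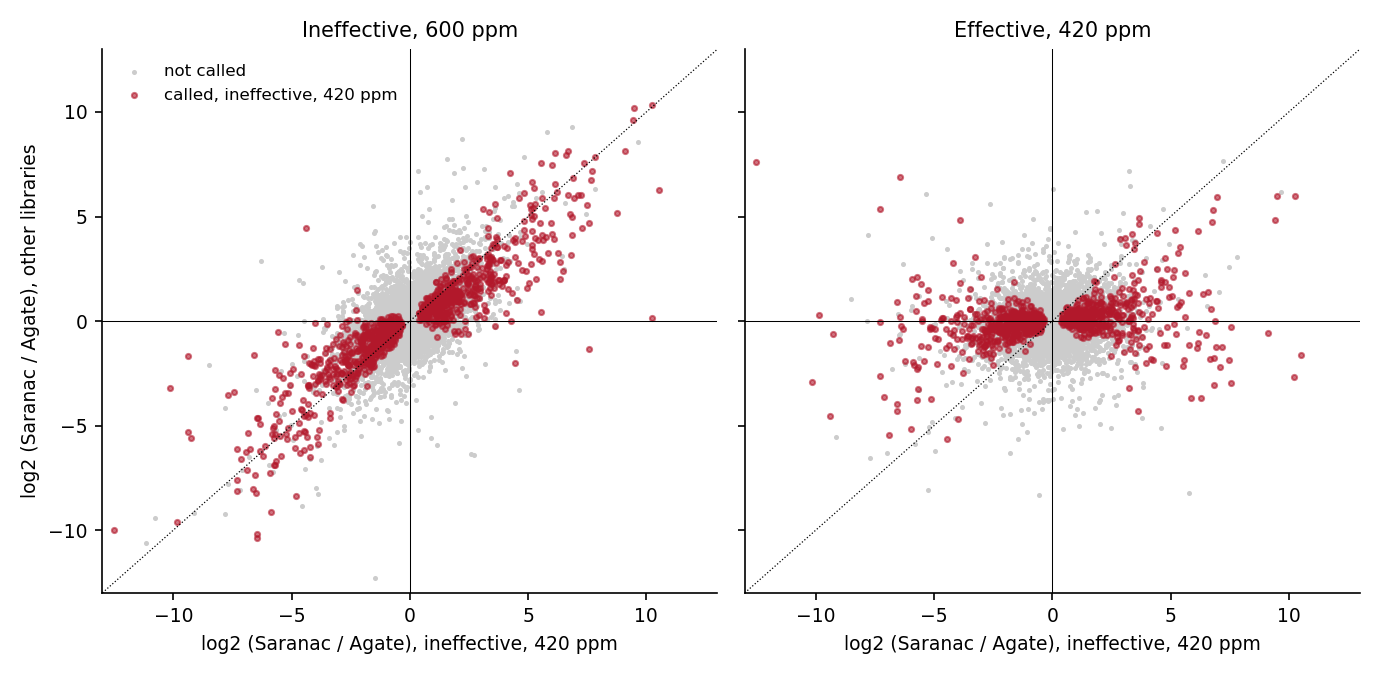
Cultivar difference (log2 Saranac over Agate) in ineffective plants at 420 ppm on the horizontal axis, against the same difference in ineffective plants at 600 ppm (left) and in effective plants at 420 ppm (right). Each point is an identifier, red where called in ineffective plants at 420 ppm and grey where not. The dotted line marks equal values. Red points rise with the line at left, where 96.2% have the same sign, and lie along the horizontal axis at right, where 64.01% do.

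Libraries at 420 ppm were placed between the ineffective cultivars as follows. For the 2071 identifiers called at 600 ppm in ineffective plants and tested in both classes at 420 ppm, a midpoint was set between the ineffective cultivar medians at 600 ppm. Each 420 ppm library, none of which had been used, was then scored by the share of identifiers on the Saranac side. This description was added after the data were seen, and its identifiers and midpoint put any group that lacks the cultivar difference between the cultivars. Ineffective Saranac libraries had 59.2 to 67.6% (median 61.3%) and ineffective Agate libraries 22.5 to 35.3% (median 29.3%). Effective Saranac libraries had 42.8 to 48.3% (median 44.5%) and effective Agate libraries 37.04 to 42.8% (median 40.2%). No ineffective library of either cultivar fell within the range of the effective ones.

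The 78 called identifiers whose ineffective ranges at 420 ppm did not overlap were treated alike, with the midpoint set in those libraries, so the same holds for them. In ineffective plants at 600 ppm, 75.1% of library values in Saranac and 16.1% in Agate lay on the Saranac side. In effective plants at 420 ppm these were 51.2% in Saranac and 40.8% in Agate. For 70 of the 78, effective Saranac had libraries on both sides, and for 72 effective Agate did. In ineffective plants at 600 ppm Saranac had libraries on both sides for 57 and Agate for 58. At most of these identifiers, libraries of 1 cultivar thus lay on either side of the midpoint in both sets, so this was not particular to effective plants.

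Of the 1159 called identifiers, ineffective Saranac lay farther than ineffective Agate from the midpoint of the effective cultivars for 670 (57.8%), against 52.3% of all tested. Among the 260 identifiers whose cultivar difference differed between fixation classes, this was so for 134 (51.5%), near the share of all tested. Since the 1159 were called for their cultivar difference, the distances themselves are not compared with those of other identifiers. The spread among libraries of 1 nitrate level, as a median over 20676 identifiers, was 0.589 in ineffective Saranac and 0.706 in ineffective Agate (SD, log2 CPM). It was 0.586 in effective Saranac and 0.591 in effective Agate, so ineffective Agate was the most variable of the 4 groups. Its libraries at 16 mM replicate 1 and 10 mM replicate 1 had the largest residual variance, 2.11 and 1.87. Without both, 1264 identifiers were called between the cultivars.

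The called identifiers were unevenly spread over the identifier numbers. The sources used here do not say what the digits stand for. Among those whose digits begin with 04, 269 of 2943 tested were called (9.14%), and among those with 06, 124 of 1586 (7.82%). Those beginning with 00, 01, 02, 03, 05, 07 and 08 had between 3.81% and 5.25%, against 5.37% over all. At 600 ppm, where no library was shared, 04 again had the highest share, 14.6% against 10.7% over all. There 00 had 12.8%, 06 had 12.5%, and the lowest was 02 with 8.76%.

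Called identifiers also lay next to each other. For 142 of the 1159 the next tested identifier by number was called too (12.3%, against 5.37% of all tested), 100 with the same direction and 42 with the opposite one. At 600 ppm this share was 16.1%, against 10.7% of all tested. Cut into 216 windows of 100 tested identifiers, the list held 0 to 20 called per window with a median of 5. Of the 13 windows with 13 or more, 8 began with 04, which has 29 windows. Where neighbours are near-identical copies, counting can divide reads between them. Whether they are was not tested, so the number of separate differences in such windows is uncertain.

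**Figure D4:**
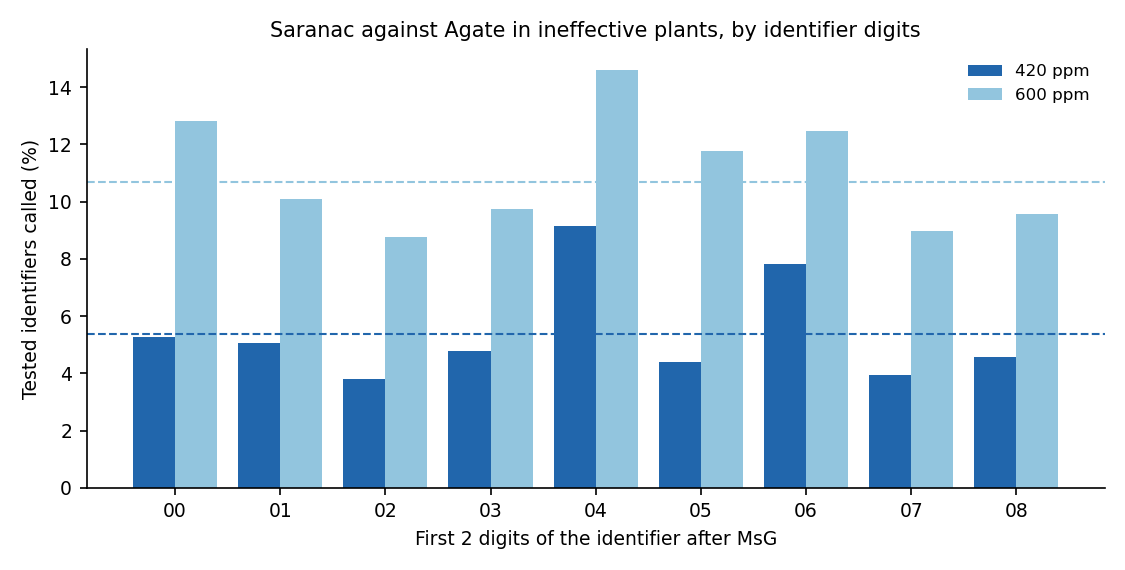
Share of tested identifiers called between Saranac and Agate in ineffective plants (%), by the first 2 digits after MsG, at 420 ppm (dark bars) and 600 ppm (light bars). Dashed lines are the shares over all tested identifiers, 5.37% and 10.7%. The bars for 04 are the highest at both CO2 levels, 9.14% and 14.6%.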

How the data were processed

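Leaf mRNA was sequenced from libraries made with a stranded kit from polyadenylated RNA, per the labels. The deposited table holds raw counts per gene identifier, which the authors counted with featureCounts, according to the submitters' processing notes. Not given in the sources used here are the read aligner, the build, the gene annotation, whether strand was used in counting and the counter's version. Of the 49095 identifiers 0 matched the reference table (assembly Bolivia_mono) and 15988 had no count in the 20 libraries. For want of names no gene list was run, and no sequence could be looked up. No 2 columns were identical, and 0 columns belonged to no sample.

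Identifiers were kept by filterByExpr on cultivar and nitrate and tested with edgeR 4.0.16 (R 4.3.3): TMM scaling, robust quasi-likelihood fits, Benjamini-Hochberg adjustment over all tested, called under 0.05. A standard error is the log2 fold change over the square root of F. CPM was scaled by TMM over the 85 grouped libraries, and principal components and distances used log2 CPM with a prior count of 2. Library measures were compared with 100000 permutations. Single identifiers were taken at a mean of at least 1 CPM, at most 2 higher and 2 lower per comparison: by fold change without overlap over all levels, by abundance within a level, by p for cultivar and nitrate, and by the difference of fold changes for cultivar and fixation. Identifiers taken within a level also needed the same sign at every nitrate level. Scripts were tested on simulated data. The comparison, its members and the rules were chosen with earlier results of these data known. Alternatives were a replicate block, DESeq2 1.42.0 (its size factors and its test), limma 3.58.1, no filter, other sets of libraries and the composition covariate.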

Additional observations from a re-analysis of the deposited data

Results flagged for a closer look

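Several single libraries stood far from the other 9 of their cultivar, by the gap to the nearest library over the whole range (Dixon's 95% criterion). Of 52 groups of values examined, 9 passed it, and chance flags about 1 in 20 where values are normally distributed. Of the 9, 8 were among the 36 groups of CPM values. Some of those are skewed or mostly 0, so that rate does not hold for them. Saranac 6 mM replicate 2 had 16.1 CPM of MsG0080048024.01 (next 7.60) and 18.03 CPM of MsG0380011840.01 (next 8.53). Saranac 16 mM replicate 1 had the only reads of MsG0180000574.01 in that cultivar (0.117 CPM), and Saranac 16 mM replicate 2 had 0.961 CPM of MsG0480021519.01 (next 0.0550). In Agate, 6 mM replicate 2 had 12.3 CPM of MsG0180000170.01 (next 0.248), and 10 mM replicate 3 had 11.4 CPM of MsG0480021407.01 (next 5.86). Agate 10 mM replicate 1 had 292 CPM of MsG0180005882.01 (next 15.3), and 16 mM replicate 2 had 1.34 CPM of MsG0280010631.01 (next 0.546). Agate 10 mM replicate 4 had the fewest identifiers with a count at the common depth, 22388 (next 23191). For the identifiers named over all nitrate levels and for fixation class each library was left out in turn, with the values given above where a call changed. Within single nitrate levels the single library left out was Saranac 6 mM replicate 3, and the part of the others was not tested there.

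The cultivar difference differed between ineffective and effective plants for 260 identifiers by edgeR's test of the difference itself. Of the identifiers named here 12 were among them. Their adjusted p was 7.6e-05 for MsG0480021153.01, 0.00095 for MsG0180005882.01, 0.0057 for MsG0480020375.01, and 0.0061 for both MsG0480020270.01 and MsG0680032997.01. It was 0.0094 for MsG0180001938.01, 0.018 for MsG0080048024.01, 0.020 for both MsG0180000574.01 and MsG0280010631.01, and 0.024 for MsG0580025845.01. It was 0.036 for MsG0480021519.01 and 0.043 for MsG0180000170.01.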

How the results depend on the processing

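The count of 1159 stayed within 1.5 times itself, from 841 to 1423, under a replicate block (865), DESeq2's size factors within edgeR, limma-trend, limma-voom with library weights, no filter, a log2 fold change above 1 and 3 other sets of libraries or terms. DESeq2's test gave 2411, a model of all 85 libraries 2443 and pairs of the same replicate number as a block 300. Leaving out a replicate number gave 162 to 860, and a single library 786 to 1224. At 6 mM the count of 0 became 405 with DESeq2, 29 with limma-trend and 40 in the model of all 85 libraries, and was 0 to 1 without a replicate number. At 10 mM the count of 25 became 7 with the replicate block, 539 with DESeq2, 53 with limma-trend, 10 with no filter, 14 without the library whose number is out of order and 132 in the model of all 85, and was 0 to 10 without a replicate number. At 16 mM the count of 9 became 0 with the replicate block, 4 with the size factors of DESeq2, 359 with its test, 29 with limma-trend, 0 with no filter, 0 without the out-of-order library and 35 in the model of all 85, and was 0 to 9 without a replicate number. For cultivar and nitrate DESeq2 called 5, and leaving out a replicate number gave 0 to 4. For cultivar and fixation the count of 260 became 795 with DESeq2 and 578 in the model of all 85, was 207 with the replicate block, and was 18 to 184 without a replicate number and 202 to 342 without a single library. For cultivar and CO2 DESeq2 called 40, and leaving out a replicate number gave 0. Replicate numbers were not treated as pairs: over 9 pairs of the same number and nitrate level, residuals correlated between -0.273 and 0.300 (median 0.0148), 2 pairs exceeded 0.1, and 7 of 18 libraries correlated best with their own number. The cause of these moves in the counts was not tested, but a left-out replicate number removes up to 6 of the 20 libraries. Over 466 recalculations of the named identifiers, 395 kept their side of the threshold, 68 lost the call, 3 gained it and 0 changed direction. MsG0480021407.01 lost its call over all levels only in the pairs of replicate numbers (adjusted p = 0.070), among the 35 alternatives run. The paired block changed no other call of the 4 named over all levels.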
